A study of Mus musculus with 18 samples.

Results

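The comparison described here sets 6 libraries of calorie-restricted mouse livers against 6 libraries of livers on the same diets with no added regimen. The libraries were chosen by their titles: LF+CR and HF+CR on one side, LF and HF alone on the other, 12 of the 18 libraries in the series. All mice were wild-type C57BL/6J, an inbred laboratory strain, began their regimens when 5 weeks old and had their livers taken at 62 weeks. The compared groups, of 3 libraries each, were LF+CR with its control LF and HF+CR with its control HF. The remaining 6 libraries, LF+Ex and HF+Ex, entered the shared estimate of spread and a direct comparison of CR with Ex. The labels give the group names without spelling them out; here LF is taken to mean low-fat diet, HF high-fat diet, CR calorie restriction, and Ex exercise. They do not say how far intake was restricted, nor whether a group's 3 libraries represent different animals. P-values thus measure the spread between these libraries, which may be technical.

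MicroRNAs (miRNAs) are short RNAs cut from hairpin precursors, each hairpin giving a 5p and a 3p arm. Loaded into an Argonaute protein, a miRNA pairs with messenger RNAs mainly through its seed, a stretch near its 5' end, and lowers their stability or translation, so miRNAs that share a seed share many targets. In liver, miRNAs act on sterol and fatty acid metabolism, insulin signalling and fibrosis, processes that calorie restriction is known to alter in rodents.

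Averaged over the diets, 22 of 351 tested miRNAs fell with CR (6.27% of those tested) and 1 rose (0.285%), at an adjusted p under 0.05 by limma. The 23 called miRNAs came from 21 hairpin names. Those that fell included miR-34a-5p, a target of the p53 tumour suppressor; miR-148b-3p, of the miR-148/152 family; the insulin-linked pair miR-103-3p and miR-107-3p; and miR-98-5p and let-7b-5p of the let-7 family. The mature sequences of the miRNAs that carry these results are shown because the seed groups them: of the 351 tested miRNAs 288 were matched by name to RefSeq entries on GRCm38.p6, and 19 of the 23 called ones. Capitals mark the seed, bases 2 to 8 counted from the 5' end, and each line reads 5' to 3'. The first 4 are let-7 family members, of which the first pair was called and the second pair was not.
miR-98-5p: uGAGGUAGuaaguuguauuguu
let-7b-5p: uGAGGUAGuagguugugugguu
let-7c-5p: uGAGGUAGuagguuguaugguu
let-7a-5p: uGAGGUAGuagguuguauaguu
The next lines give the miR-103/107 pair, both called, then miR-148b-3p, which was called, with miR-148a-3p, which was not, and miR-27b-3p, which was called, with miR-27a-3p, which was not.
miR-107-3p: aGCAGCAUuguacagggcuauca
miR-103-3p: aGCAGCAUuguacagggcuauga
miR-148b-3p: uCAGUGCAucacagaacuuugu
miR-148a-3p: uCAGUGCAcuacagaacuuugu
miR-27b-3p: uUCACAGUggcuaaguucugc
miR-27a-3p: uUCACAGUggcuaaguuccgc
The last lines give called miRNAs that share their seed with no other of the 288 miRNAs matched to a sequence. miR-34c-5p, a tested relative of miR-34a-5p, was not among the 288, so its seed was not compared.
miR-34a-5p: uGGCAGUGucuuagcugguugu
miR-574-5p: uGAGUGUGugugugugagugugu
miR-137-3p: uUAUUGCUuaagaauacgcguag
miR-1981-5p: gUAAAGGCugggcuuagacguggc
miR-592-5p: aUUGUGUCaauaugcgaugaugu

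Within these families the called and uncalled members are nearly the same molecule. Counting from the 5' end of the first-named miRNA, miR-107-3p differs from miR-103-3p by C22G, let-7b-5p from let-7c-5p by G17A, and miR-27b-3p from miR-27a-3p by U19C. miR-148b-3p differs from miR-148a-3p by U9C and C10U, and miR-98-5p from let-7a-5p by A11G and U19A. How the authors assigned reads that match several miRNAs is not given in the sources used here, so reads could be split between such relatives. Among the 288 with a sequence, the 9 miRNAs with the seed GAGGUAG had 2 called, and 8 of the 9 lay below 0 (6 of the 9 after the rescaling by size factors). The seed GCAGCAU had 2 of 2 called, CAGUGCA 1 of 3 and UCACAGU 1 of 2. The median GC content was 47.6% both for the 19 called miRNAs with a sequence and for the 288 tested ones.

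The libraries held 2.90 to 7.70 M (megareads) on listed miRNAs in the CR groups (median 5.31 M) and 4.05 to 8.88 M in the controls (median 6.67 M), read from the RPM steps. Values are RPM, reads scaled to a library's total, so a gain in abundant miRNAs lowers the share of the others. The libraries were those of liver: miR-122-5p, the main hepatocyte miRNA, stood between 216952 and 292388 RPM in the CR libraries and between 201007 and 281284 RPM in the controls. Some libraries stood apart. HF+CR 3 and LF 1 had the highest summed epithelial miRNAs, 8480 and 6705 RPM, against 1191 to 3355 RPM in the other 10 libraries, and also the highest leukocyte and Kupffer cell sums. LF+CR 1 and HF+CR 1 had the highest pancreatic sums, 430.3 and 214 RPM. LF 2 and HF+CR 2 had the highest neuronal sums, 726 and 667 RPM.

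The number of calls depended on single libraries. It was 78 (6 higher, 72 lower) without HF+CR 3, the shallowest of the 12, and all 23 were among them. Leaving out LF 2 gave 39, LF 1 gave 12, LF 3 and HF+CR 2 gave 10 each, and LF+CR 1 and HF 3 gave 6 each. Without HF 2 limma called none, with 83 miRNAs at an unadjusted p under 0.05, and with the 12 compared libraries alone in the fit it called none, with 82 at an unadjusted p under 0.05, against 92 in all 18. Without both LF 1 and HF+CR 3, 63 were called (8 higher, 55 lower), 20 of the 23 among them; without both LF+CR 1 and HF+CR 1, none, with 62 at an unadjusted p under 0.05; without both LF 2 and HF+CR 2, 12 (1 higher, 11 lower). When the RPM were rescaled by median-of-ratios size factors, 8 were called, 3 higher and 5 lower, and 5 of the 8 were among the 23. These 5 include miR-669a-3p and miR-669o-3p, which have identical values and count as 1 measurement. The median change of all 351 miRNAs was -0.17 on the log2 scale as deposited, with 241 below 0, and 0.02 after rescaling, and the changes given here include that shift.

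Of the called miRNAs, the lowest average was that of miR-34a-5p, which is induced by p53 and represses the deacetylase gene Sirt1. It had 388, 469.9 and 814 RPM in LF+CR livers, against 3493, 1293 and 1831 RPM in LF livers. On the HF diet it had 1176, 596 and 2939.6 RPM in HF+CR livers, against 2501, 3259 and 2341 RPM in HF livers. The LF groups did not overlap, while HF+CR 3 reached into the range of HF. Its averaged change on the log2 scale came to -1.50 (SE 0.35, adjusted p = 0.0256), being -1.93 on LF and -1.07 on HF. After rescaling it was -1.31 (adjusted p = 0.0248). The call was lost when any of LF 1, LF+CR 1, HF 2, HF 3 and HF+CR 2 was left out, and without both LF 1 and HF+CR 3 the value was -1.61 (adjusted p = 0.00504). Of its family, miR-34c-5p lay at -0.17 (SE 0.28, adjusted p = 0.697). The other arm, miR-34a-3p, had a mean of 5.91 RPM and lay at -0.91 (SE 0.33, adjusted p = 0.096). The hairpin Mir34a lies at chromosome 4, 150068454 to 150068555, plus strand (GRCm38), in an exon of the unconfirmed transcript Gm37795.

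miR-148b-3p belongs to a family whose best-known liver member, miR-148a-3p, represses the LDL receptor gene. It had 194, 197 and 354 RPM in LF+CR livers, against 535, 413 and 502 RPM in LF livers. On HF, miR-148b-3p stood at 473, 325 and 528 RPM in HF+CR livers, against 682, 811 and 841 RPM in HF livers. On each diet every CR library lay below every control library, and the HF+CR range reached into that of LF, so the split was within diets. The averaged value was -0.92 (SE 0.18, adjusted p = 0.0147), with -1.01 on LF and -0.84 on HF. It was -0.73 after rescaling (adjusted p = 0.0134), and among the 12 omissions of a library the call was lost only without HF 2 (adjusted p = 0.0556). miR-148a-3p was 0.14 (SE 0.15, adjusted p = 0.549) and miR-152-3p was -0.28 (SE 0.14, adjusted p = 0.228). miR-148b-3p made up 1.08% to 2.05% of the family's RPM in the CR libraries and 2.03% to 3.33% in the controls, and the effect of read assignment between them was not tested. Its other arm miR-148b-5p was at -0.49 (SE 0.18, adjusted p = 0.0998). Mir148b lies in an intron of the coatomer gene Copz1 at chromosome 15, 103285125 to 103285221, plus strand (GRCm38).

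miR-107-3p and miR-103-3p lower insulin sensitivity in mouse liver and fat through caveolin-1, and are intronic to pantothenate kinase genes (Pank1 for miR-107-3p, Pank2 and Pank3 for miR-103-3p). miR-107-3p had 4322, 3609 and 4085 RPM in LF+CR livers, against 5027, 5684 and 5638 RPM in LF livers. On HF, miR-107-3p stood at 3872, 5289 and 3154 RPM in HF+CR livers, against 5313, 7946 and 7189.6 RPM in HF livers. Every CR library lay below every control library of its diet, with HF+CR 2 only just under HF 1. The average was -0.59 (SE 0.13, adjusted p = 0.0217), one of 4 called miRNAs with a larger change on HF (-0.45 on LF and -0.74 on HF). miR-103-3p had 8716, 8707 and 8088 RPM in LF+CR livers, against 12178, 11615 and 11519 RPM in LF livers. On HF, miR-103-3p stood at 8396, 10991 and 8377 RPM in HF+CR livers, against 9744, 17184 and 13355 RPM in HF livers, and there HF+CR 2 lay above HF 1. Its average was -0.49 (SE 0.12, adjusted p = 0.0274). miR-107-3p made up 27.4% to 33.6% of the pair's RPM in CR libraries and 29.2% to 35.3% in controls, overlapping ranges. Neither call held after rescaling, which put miR-107-3p at -0.40 (adjusted p = 0.181) and miR-103-3p at -0.30 (adjusted p = 0.234). The miR-107-3p call was lost without HF 2 or HF 3, and that of miR-103-3p when LF 1, LF 3, LF+CR 1, HF 2 or HF 3 was left out.

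The let-7 family represses growth and insulin pathway genes. miR-98-5p, a let-7 family member in an intron of the ubiquitin ligase gene Huwe1, had 272, 204 and 304 RPM in LF+CR livers, against 435, 438 and 410.5 RPM in LF livers. On HF, miR-98-5p stood at 290.3, 257 and 325 RPM in HF+CR livers, against 373, 400.0 and 360.1 RPM in HF livers. All 6 CR libraries lay below all 6 controls, as they did for 6 of 351 miRNAs, of which 5 were called. The average was -0.56 (SE 0.12, adjusted p = 0.0177), lost among the 12 omissions only without HF 2 (adjusted p = 0.0556), and -0.36 after rescaling (adjusted p = 0.113). let-7b-5p had 4884, 7036 and 5976 RPM in LF+CR livers, against 9747, 9681 and 13703 RPM in LF livers. On HF, let-7b-5p stood at 10573, 6673 and 12127 RPM in HF+CR livers, against 10256, 11066 and 10515 RPM in HF livers. Its LF groups were apart, its HF groups overlapped with HF+CR 1 within and HF+CR 3 above the HF range, and its average was -0.52 (SE 0.15, adjusted p = 0.0484). That call held in 4 of the 12 omissions, those of LF 2, LF+CR 2, HF+CR 1 and HF+CR 3, and let-7b-5p was at -0.33 after rescaling (adjusted p = 0.175). The abundant let-7f-5p had 31837, 31232 and 26683 RPM in LF+CR livers, against 35313, 37240.5 and 33196 RPM in LF livers. On HF, let-7f-5p stood at 25064, 25208 and 29136 RPM in HF+CR livers, against 33376, 32436 and 32356 RPM in HF livers. All 6 CR libraries were again below all 6 controls, and its value of -0.27 (SE 0.09, adjusted p = 0.0579) missed the threshold. Across the 9 tested 5p arms 2 fell, the median was -0.27 (-0.08 after rescaling), and let-7e-5p alone lay above 0, at 0.07; after rescaling 3 lay above 0. Their summed RPM were 102406, 105528 and 105026 RPM in LF+CR livers, against 136702, 134524 and 143646 RPM in LF livers. On HF the sums were 117733, 102087 and 130761 RPM in HF+CR livers, against 126774, 127028 and 128776 RPM in HF livers. The LF sums did not overlap and the HF sums did.

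**Figure D1:**
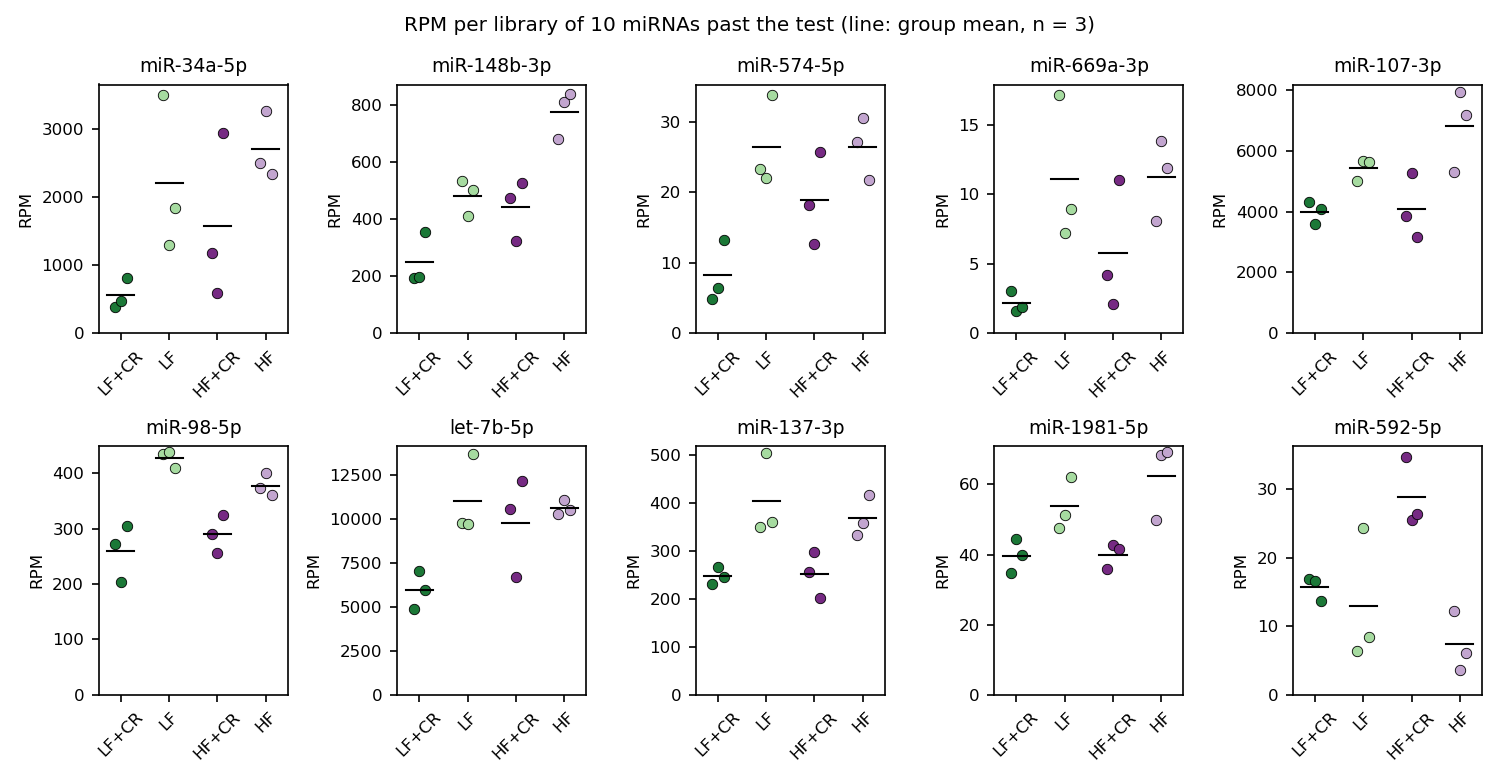
RPM of 10 called miRNAs in each library, one panel per miRNA with groups LF+CR, LF, HF+CR and HF from left to right; points are libraries and the line is the mean of 3. miR-98-5p, miR-137-3p and miR-1981-5p have all 6 CR points below all 6 control points, while miR-34a-5p and miR-669a-3p have 1 HF+CR point within the HF range.

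Low-level miRNAs were among the largest changes. miR-574-5p, mostly alternating u and g and lying in an intron of Fam114a1 at chromosome 5, 64970318 to 64970395, plus strand (GRCm38), had 4.91, 6.46 and 13.3 RPM in LF+CR livers, against 23.3, 21.96 and 33.8 RPM in LF livers. On HF, miR-574-5p stood at 18.2, 12.7 and 25.7 RPM in HF+CR livers, against 27.2, 30.5 and 21.7 RPM in HF livers. The LF groups were apart and the HF groups overlapped, through HF+CR 3. Its average was -1.08 (SE 0.22, adjusted p = 0.0147), and -0.90 after rescaling (adjusted p = 0.0171). The repeat-derived miR-669a-3p and miR-669o-3p of the Sfmbt2 intron have identical values in the file and count as 1 measurement. miR-669a-3p had 3.02, 1.58 and 1.90 RPM in LF+CR livers, against 17.1, 7.23 and 8.95 RPM in LF livers. On HF, miR-669a-3p stood at 4.20, 2.12 and 11.03 RPM in HF+CR livers, against 8.05, 13.8 and 11.9 RPM in HF livers. The LF groups did not overlap, and HF+CR 3 lay inside the HF range. Its average was -1.46 (SE 0.29, adjusted p = 0.0147), -1.31 after rescaling (adjusted p = 0.00859) and -1.56 without LF 1 and HF+CR 3 (adjusted p = 0.00064). By the assumed RPM steps, 1 read was worth between 0.109 and 0.334 RPM in the 12 libraries, and a listed 0 may be 0 or 1 read. The pseudocount of 1 RPM understates changes at these levels. miR-185-3p fell by 0.86 and miR-1839-3p by 0.83. Both had a mean under 20 RPM over the 18 libraries, as did 6 of the 23. Of the 23, 5 had a mean over 1000 RPM. The more abundant arm miR-185-5p, with a mean of 1191.5 RPM, was not called, at -0.17 (SE 0.13, adjusted p = 0.403).

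miR-137-3p, best known from brain, had 232, 268 and 247 RPM in LF+CR livers, against 349.5, 504 and 360.0 RPM in LF livers. On HF, miR-137-3p stood at 256, 298 and 202 RPM in HF+CR livers, against 335, 358 and 416 RPM in HF livers. All 6 CR libraries were below all 6 controls. The average was -0.62 (SE 0.15, adjusted p = 0.0303), with a larger change on LF (-0.68) than on HF (-0.56), and -0.43 after rescaling (adjusted p = 0.214). miR-1981-5p, from an intron of the amidoxime reductase gene Marc2, had 34.6, 44.3 and 39.9 RPM in LF+CR livers, against 47.7, 51.3 and 62.1 RPM in LF livers. On HF, miR-1981-5p stood at 35.9, 42.6 and 41.5 RPM in HF+CR livers, against 49.98, 68.3 and 69.2 RPM in HF livers. Here too the 6 CR values lay below the 6 control values, and the average was -0.52 (SE 0.12, adjusted p = 0.0244), with -0.33 after rescaling (adjusted p = 0.174). The miR-137-3p call was lost without LF+CR 1, HF 2 or HF 3, and that of miR-1981-5p without those or LF 3. miR-27b-3p, a regulator of lipid metabolism genes, had 3174, 3147 and 4670.5 RPM in LF+CR livers, against 5444, 5914 and 5522 RPM in LF livers. On HF, miR-27b-3p stood at 5561, 5984 and 5772 RPM in HF+CR livers, against 6508, 6261 and 6617 RPM in HF livers, so that the groups were apart on each diet although the difference on HF was small. Its average was -0.40 (SE 0.10, adjusted p = 0.0335). That call held in 5 of the 12 omissions, those of LF 2, LF+CR 3, HF 1, HF+CR 1 and HF+CR 3, and miR-27b-3p was at -0.21 after rescaling (adjusted p = 0.326).

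Of the other called miRNAs, miR-423-5p and miR-423-3p, the 2 arms of a hairpin in an intron of Nsrp1, were at -0.70 and -0.53, and miR-1839-3p and miR-1839-5p were the only other hairpin with both arms called. Mir1839 and Mir1843a overlap scaRNA genes in the annotation, so reads of miR-1839-5p (at -0.53) and miR-1843a-3p (at -0.60) cannot be told apart from those. The more abundant arm miR-1843a-5p, with a mean of 261 RPM, was not called, at -0.04 (SE 0.12, adjusted p = 0.859). miR-328-3p (-0.78), miR-674-5p (-0.55), miR-505-3p (-0.53) and miR-29b-2-5p (-0.36) complete the list. miR-328-3p had 41.5, 73.4 and 85.2 RPM in LF+CR livers, against 188, 152 and 196 RPM in LF livers, but on HF it had 201, 80.5 and 142 RPM in HF+CR livers, against 120.0, 126 and 188 RPM in HF livers, so its average rests on the LF diet, and the call held in 5 of the 12 omissions, those of LF 2, LF+CR 3, HF 1, HF+CR 1 and HF+CR 3. All 23 called miRNAs had the same sign on both diets, a direction that the averaged test itself favours, and 19 had the larger change on LF. Over all 351 miRNAs the change on HF minus that on LF had a median of 0.28 with 27.1% below 0 as deposited, and of 0.02 with 49.0% below 0 after rescaling, so the count of 19 is read against a shift of all miRNAs. On each diet 3 of 3 CR libraries lay outside the control range for 10 of the 23, in 12 the groups overlapped on HF only, and in miR-592-5p on LF only. The share of all 351 miRNAs with groups apart on 1 diet only was not counted. Groups apart on LF only were not particular to called miRNAs, since the uncalled let-7c-5p, let-7d-5p and let-7g-5p showed the same. Over all 351 miRNAs CR libraries lay below every control library of the same diet on both diets in 13 (3.7%), among them the uncalled miR-140-5p, let-7f-5p and miR-335-5p. They lay above on both diets in 1 (0.285%), miR-690. This is one of the fragment-like entries listed as an RNA quality check, and its average of 1.26 (SE 0.68, adjusted p = 0.238) was not called.

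**Figure D2:**
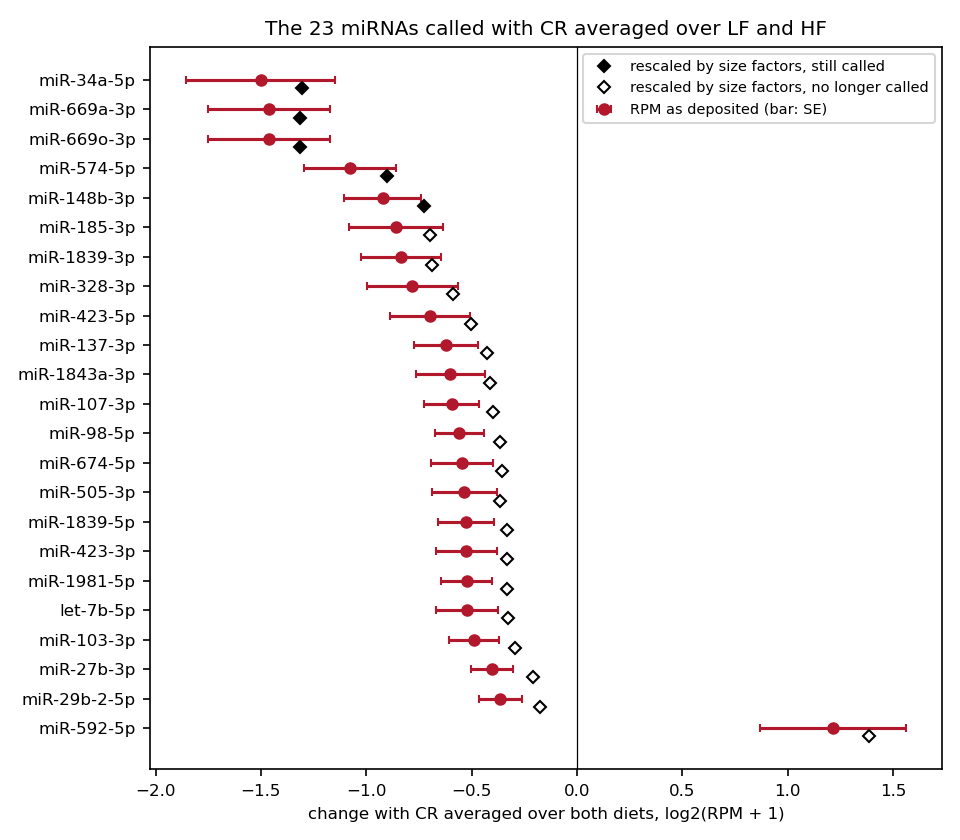
Averaged change with CR of the 23 called miRNAs on the log2(RPM + 1) scale, with its SE (red points and bars) and the same change after rescaling by size factors (diamonds, filled where still called). All 22 lower miRNAs stay below 0 after rescaling, and 5 of them, from miR-669a-3p at -1.314 to miR-148b-3p at -0.73, keep an adjusted p under 0.05. Among these 5, miR-669a-3p and miR-669o-3p have identical values.

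The single miRNA that rose was miR-592-5p, from an exon of the glutamate receptor gene Grm8. It had 16.9, 16.6 and 13.7 RPM in LF+CR livers, against 6.35, 24.3 and 8.40 RPM in LF livers. On HF, miR-592-5p stood at 34.8, 25.6 and 26.4 RPM in HF+CR livers, against 12.3, 3.57 and 6.17 RPM in HF livers. The HF groups did not overlap and the LF groups did, since LF 2 lay above all LF+CR libraries. The average was 1.22 (SE 0.35, adjusted p = 0.0484). Of the 12 omissions 3 left the call standing, and the value was 1.39 after rescaling (adjusted p = 0.0698). In Ex libraries miR-592-5p stood at 46.5, 45.02 and 30.9 RPM on LF, above LF+CR, and at 16.7, 4.678 and 4.685 RPM on HF, below HF+CR. Of the next miRNAs by p in the upward direction, miR-29a-3p, which targets collagen messages, had 83538, 89703 and 70139 RPM in LF+CR livers, against 59998, 52695 and 53793 RPM in LF livers. On HF, miR-29a-3p stood at 56763, 58652 and 73375 RPM in HF+CR livers, against 53736, 62747 and 63667 RPM in HF livers, overlapping ranges. Its average of 0.30 (SE 0.09, adjusted p = 0.0513) missed the threshold and was 0.50 after rescaling (adjusted p = 0.0137). miR-184-3p, with a mean of 3.48 RPM, was at 1.01 (SE 0.30, adjusted p = 0.0513) and at 1.16 after rescaling (adjusted p = 0.0248). miR-125b-2-3p was at 0.28 (SE 0.12, adjusted p = 0.132) and at 0.47 after rescaling (adjusted p = 0.0373). With miR-29a-3p these were the 3 called higher after rescaling. miR-122-3p, the minor arm of the hepatocyte miRNA, was at 0.75 (SE 0.25, adjusted p = 0.0742). miR-33-5p, encoded within the sterol regulator gene Srebf2 and a repressor of cholesterol export, was at 0.52 (SE 0.18, adjusted p = 0.0876), with 1.03 on LF and 0.02 on HF. miR-30a-5p was at 0.23 (SE 0.09, adjusted p = 0.113).

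The reads gained by the CR libraries went to few miRNAs. Over the means of both diets the summed gain was 67543 RPM, and 5 miRNAs made up 79.9% of it. miR-122-5p gained 27880 RPM, with 253482, 266336 and 292388 RPM in LF+CR livers, against 206787, 259278 and 281284 RPM in LF livers. On HF, miR-122-5p stood at 268712, 282043 and 216952 RPM in HF+CR livers, against 236519, 201007 and 227759 RPM in HF livers. On both diets the groups overlapped, and its log2 change of 0.17 (SE 0.09, adjusted p = 0.266) did not pass. miR-29a-3p, miR-29c-3p, miR-30a-5p and miR-29b-3p gained 14256, 5344, 3958 and 2516 RPM as the mean of both diets. For miR-29c-3p and miR-29b-3p the gain came from LF alone, with 12256 and 5548 RPM on LF and -1568 and -515.5 RPM on HF. The summed change of the miRNAs that lost reads was -65103.5 RPM and was spread wider, with 39.1% on let-7f-5p, miR-192-5p, let-7c-5p, miR-21a-5p and miR-378a-3p. The 22 lower miRNAs together held 2.92% of the RPM in the CR libraries and 4.21% in the controls.

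**Figure D3:**
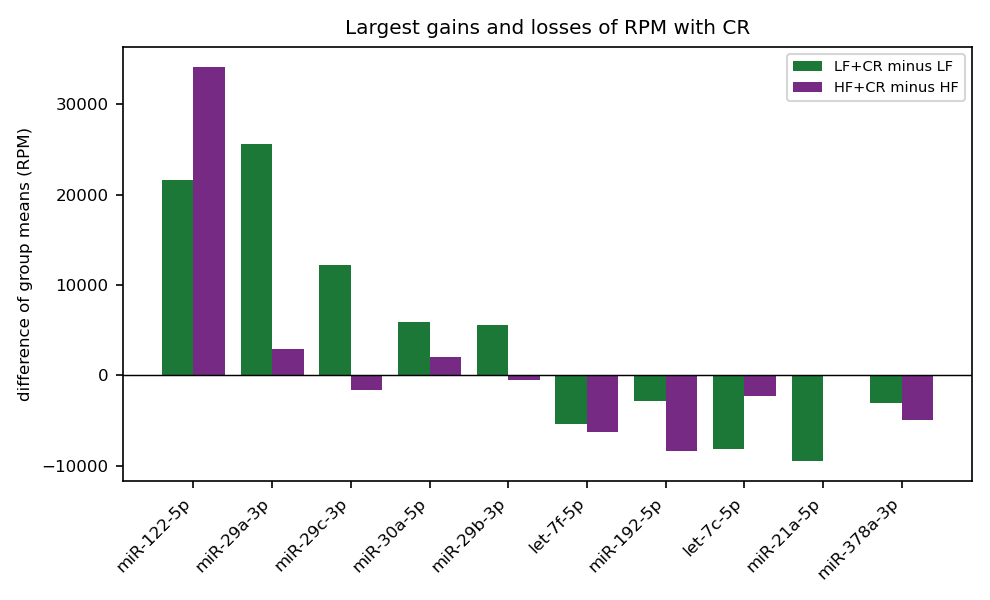
Difference of group means in RPM for the 5 miRNAs with the largest gain and the 5 with the largest loss with CR; green bars are LF+CR minus LF and purple bars HF+CR minus HF. miR-122-5p gained on both diets, while miR-29a-3p gained 25632 RPM on LF and 2880.0 RPM on HF. miR-29c-3p and miR-29b-3p gained on LF and lost on HF.

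Whether CR acted alike on the diets was tested as the change on HF minus the change on LF. Of 351 miRNAs 3 (0.855%) differed by limma, all with the change higher on HF, where the median of all miRNAs was 0.28 (0.02 after rescaling), and 48 had an unadjusted p under 0.05. They included the 2 arms of miR-1948, whose hairpin sits in an intron of Ttc39c. miR-1948-3p had 13.1, 19.4 and 18.98 RPM in LF+CR livers, against 44.2, 79.8 and 48.7 RPM in LF livers. On HF, miR-1948-3p stood at 89.7, 86.7 and 58.2 RPM in HF+CR livers, against 45.1, 33.8 and 34.99 RPM in HF livers. The CR libraries lay below LF on one diet and above HF on the other, with no overlap, and the difference was 2.67 (SE 0.35, adjusted p = 0.000482), called in all 12 omissions. Because the directions are opposite, its average was -0.33 and was not called. miR-1948-5p showed the same order at a lower level, with 2.39, 2.52 and 4.55 RPM in LF+CR livers, against 9.07, 15.8 and 7.64 RPM in LF livers. On HF, miR-1948-5p stood at 31.4, 19.04 and 12.7 RPM in HF+CR livers, against 12.6, 7.38 and 7.71 RPM in HF livers, and the difference was 2.54 (SE 0.47, adjusted p = 0.0124). miR-671-5p, from an exon of Chpf2, had 53.5, 57.04 and 62.6 RPM in LF+CR livers, against 97.2, 104 and 108 RPM in LF livers. On HF, miR-671-5p stood at 182, 136 and 133 RPM in HF+CR livers, against 118, 146 and 129.9 RPM in HF livers, and the difference was 1.02 (SE 0.22, adjusted p = 0.0306). That call was kept in 5 of the 12 omissions. After rescaling 1 miRNA was called in this comparison, and with the 12 compared libraries alone 1 was called.

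**Figure D4:**
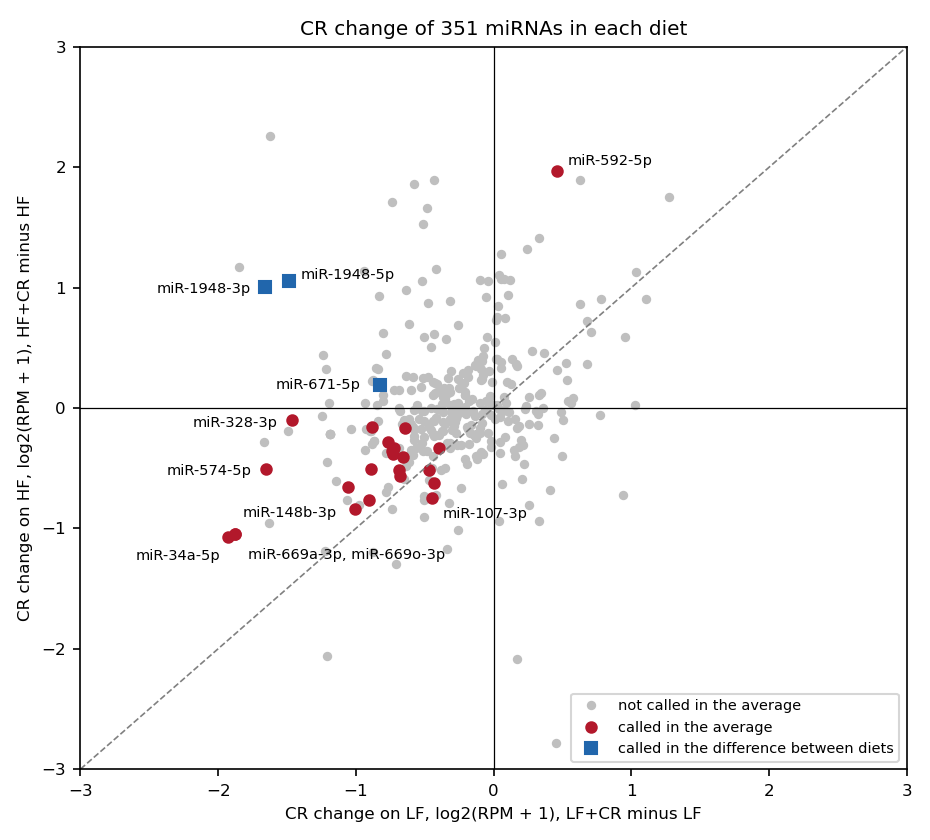
Change with CR on LF (horizontal, LF+CR minus LF) and on HF (vertical, HF+CR minus HF) for 351 miRNAs on the log2(RPM + 1) scale; the dashed line marks equal change. The 23 miRNAs called in the average (red) have 1 sign on both diets, and miR-1948-3p and miR-1948-5p (blue) lie at opposite signs.

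The direct comparison with exercise was averaged over the diets. By limma 4 of 351 miRNAs (1.14%) were lower with CR than with Ex in that average and none was higher. At an unadjusted p under 0.05 there were 88. After rescaling 11 were called, 5 higher and 6 lower, and with a filter of 50 RPM 13, 3 higher and 10 lower. Over all 351 miRNAs the median of CR minus Ex was -0.09 with 60.1% below 0 as deposited, and 0.004 with 49.0% below 0 after rescaling. The 4 called as deposited were miR-1981-5p at -0.59 (SE 0.12, adjusted p = 0.0341), miR-574-5p at -1.06 (SE 0.22, adjusted p = 0.0341), miR-1839-5p at -0.60 (SE 0.13, adjusted p = 0.0491) and miR-1948-3p at -0.76 (SE 0.18, adjusted p = 0.0499). The last was lower with CR on LF only, with 13.1, 19.4 and 18.98 RPM in LF+CR livers, against 102.5, 98.3 and 71.2 RPM in LF+Ex livers. On HF miR-1948-3p was higher with CR, with 89.7, 86.7 and 58.2 RPM in HF+CR livers, against 42.3, 47.85 and 39.7 RPM in HF+Ex livers. miR-574-5p had 4.91, 6.46 and 13.3 RPM in LF+CR livers, against 17.7, 21.6 and 20.6 RPM in LF+Ex livers. On HF it had 18.2, 12.7 and 25.7 RPM in HF+CR livers, against 41.1, 30.3 and 29.6 RPM in HF+Ex livers. The CR and Ex libraries did not overlap on either diet. The CR libraries are the same ones that were compared with the controls. The count was 0 without LF+CR 1, LF+CR 2, LF+Ex 1, LF+Ex 2, LF+Ex 3, HF+Ex 2 or HF+Ex 3. It was 27 without LF+CR 3, 37 without HF+CR 3, 11 without HF+CR 1 and 10 without HF+CR 2. Leaving out HF+Ex 1 gave 4, of which 2 were higher and 2 lower. Over these 12 omissions miR-1981-5p ran from -0.63 to -0.54, miR-574-5p from -1.25 to -0.93 and miR-1839-5p from -0.65 to -0.55. miR-1948-3p ran from -0.84 to -0.66. The highest limma adjusted p was 0.0914 for miR-1981-5p and miR-574-5p and 0.101 for the others, so these 4 calls lie near the threshold.

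Lists of related miRNAs were read by their counts beside the 6.27% that fell over all 351. Of 24 tested insulin and glucose miRNAs 4 fell (miR-107-3p, miR-34a-5p, miR-103-3p and let-7b-5p) and none rose, with a median of -0.20, or -0.003 after rescaling. Of 18 lipid and sterol miRNAs 1 fell, miR-27b-3p, and the median was -0.10, turning to 0.09 after rescaling. In the miR-29 family 1 of 7 fell, the minor arm miR-29b-2-5p, while the median was 0.14, or 0.33 after rescaling and -0.14 without the 3 shallowest libraries of the 18. In the miR-378 family, whose member miR-378a is intronic to the metabolic coactivator gene Ppargc1b, none of 4 was called, all 4 lay below 0 and the median was -0.49. miR-378a-3p had 6451, 10496 and 7372 RPM in LF+CR livers, against 9479.6, 10068 and 13966 RPM in LF livers. On HF, miR-378a-3p stood at 7667, 9953 and 9278 RPM in HF+CR livers, against 9950.2, 18363 and 13504 RPM in HF livers. The groups overlapped on both diets, and its value was -0.54 (SE 0.17, adjusted p = 0.0579). All 5 miR-30 family 5p arms lay above 0 (median 0.11) and none was called, and in the Dlk1-Dio3 cluster, a large imprinted locus, 11 of 13 lay above 0 (median 0.37, but -0.47 on LF and 1.05 on HF) with none called.

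Markers of other cell types were read in the same way, beside the 68.7% of all 351 miRNAs below 0 as deposited (45.9% after rescaling). Among leukocyte and Kupffer cell miRNAs 12 of 12 lay below 0 (10 after rescaling) and none was called, with a median of -0.77 and of -0.57 after rescaling, and no member was at 0 in all libraries. Their summed levels were 3226, 2871 and 3613 RPM in LF+CR livers, against 9029.9, 2939 and 4503 RPM in LF livers. On HF they were 6074, 4076 and 10277 RPM in HF+CR livers, against 6882, 8638 and 6766 RPM in HF livers. The ranges overlapped on both diets, with LF 1 and HF+CR 3 highest in their groups. miR-146a-5p, an inhibitor of innate immune signalling, lay at -1.21 (SE 0.40, adjusted p = 0.0688). Of other lists, 4 of 4 endothelial, 4 of 5 erythroid and 8 of 10 stellate and mural cell miRNAs lay below 0 as deposited. Among epithelial miRNAs 2 of 9 did, and no member of these lists was called. None of 11 hepatocyte miRNAs was called, and 7 lay above 0 (median 0.02). After rescaling 10 of the 11 lay above 0, with a median of 0.22. Pancreatic miRNAs had 3 of 3 above 0 (median 1.08, but -0.11 without LF+CR 1 and HF+CR 1), with sums of 430.3, 118 and 97.4 RPM in LF+CR livers, against 78.8, 79.2 and 136 RPM in LF livers. On HF they were 214, 85.3 and 132 RPM in HF+CR livers, against 71.5, 115 and 93.3 RPM in HF livers. Of 6 neuronal miRNAs 1 fell, miR-137-3p. Fragment-like entries, listed as an RNA quality check, summed to 41.4, 38.3 and 40.2 RPM in LF+CR livers, against 27.7, 20.99 and 28.4 RPM in LF livers. On HF they summed to 308, 122 and 159 RPM in HF+CR livers, against 34.03, 124 and 43.5 RPM in HF livers, so they were higher with CR on LF and overlapped on HF. In bulk liver fewer cells of a type and less RNA per cell cannot be told apart, and the part of cell content, RNA quality and depth in the calls was not tested.

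**Figure D5:**
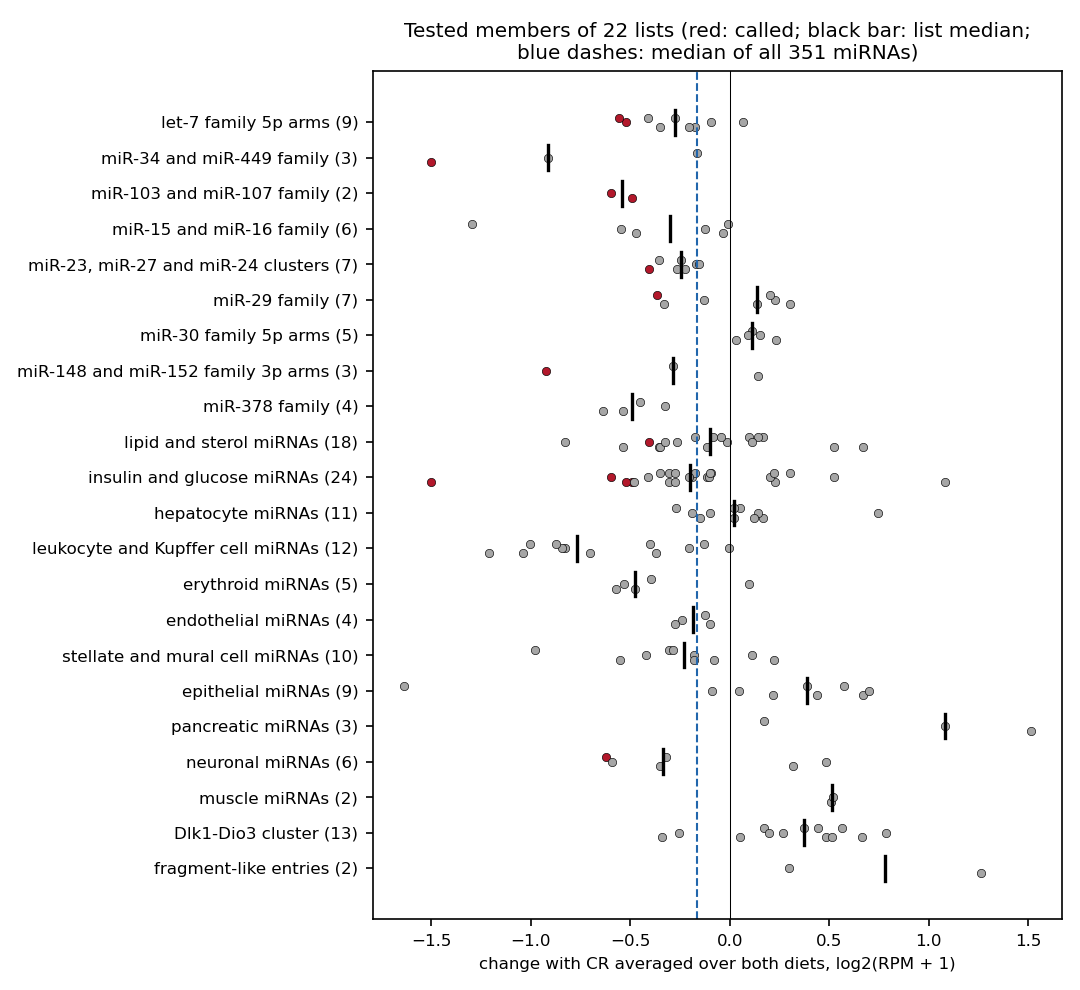
Averaged change with CR of the tested members of 22 lists on the log2(RPM + 1) scale, with the number tested in brackets; red points were called, black bars are list medians and the blue dashed line is the median of all 351 miRNAs, -0.17. All 12 leukocyte and Kupffer cell points lie below 0 (10 of 12 after rescaling) and none is red. All 4 endothelial points also lie below 0, as do 68.7% of all 351 miRNAs.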

How the data were processed

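Small RNA from liver was sequenced in 18 libraries, 6 groups of 3. Per the file headers, the authors deposited RPM (reads relative to each library's total) of 758 mature miRNAs, in a series table and in per-library tables that hold the same values (largest difference 0 RPM). Per the submitters' processing notes, reads were placed on mm10; the sources used here name no aligner, counter or miRNA release. Groups came from sample titles.

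RPM were tested as log2(RPM + 1) for the 351 miRNAs with at least 5 RPM in at least 3 of 18 libraries; 407 were not tested. limma 3.58.1 (R 4.3.3) fitted all 18 libraries with 1 coefficient per group, and contrasts averaged the within-diet differences (two-sided, moderated with a trend on mean level). P-values were adjusted by Benjamini-Hochberg over the 351 miRNAs. The method was tested on simulated data with independent noise for each miRNA and library. The simulation held no shift shared across a library, so it does not bear on the dependence on single libraries or on scaling. Rescaling used median-of-ratios size factors. Each library's depth was read from its RPM steps, each step being taken as 1 read (tolerance 0.001 reads). A step was set so that a library's smallest listed value is 2 steps. These reads carry no molecular identifiers. Tables and figures were made with pandas 2.3.3 and matplotlib 3.10.9 in Python 3.11.15. Hairpin positions are those of the GENCODE annotation on GRCm38.

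The named miRNAs were all called in the average, the other arms and seed relatives of these, up to 6 with the smallest p in each direction or further comparison, the 10 most abundant, the largest gains and losses of RPM, and list members; miR-140-5p and miR-335-5p were chosen after their values were seen. The comparison, the lists and the tests were chosen with earlier results of these data known. Alternatives were size factors, a pseudocount of 5, a 50 RPM filter or none, no intensity trend, voom weights, other fits, the replicate number as a block and omissions of libraries.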

Additional observations from a re-analysis of the deposited data

Results flagged for a closer look

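The change with CR differed between the diets for 3 miRNAs, each tested as HF minus LF in the limma fit over 351 miRNAs: miR-1948-3p by 2.67 (SE 0.35, adjusted p = 0.000482), miR-1948-5p by 2.54 (SE 0.47, adjusted p = 0.0124) and miR-671-5p by 1.02 (SE 0.22, adjusted p = 0.0306). Over its alternatives the adjusted p of miR-1948-3p lay between 0.000213 and 0.033, that of miR-1948-5p between 0.00311 and 0.129 and that of miR-671-5p between 0.0187 and 0.285.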

How the results depend on the processing

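In the average over diets 23 miRNAs were called. The count was 8 with size factors, 0 with the 12 compared libraries in either fit (group coefficients, or diet and CR additive), 9 with 18 libraries and an additive fit, and 0 to 78 with 1 library left out. Chosen after seeing the data, leaving out LF+CR 1 and HF+CR 1 gave 0, LF 1 and HF+CR 3 gave 63, LF 2 and HF+CR 2 gave 12, and the 3 shallowest libraries of the 18 gave 49. The difference between diets had 3 calls, 1 with size factors, 1 with the compared libraries alone, 1 to 9 with 1 library left out, and 1, 6, 17 and 6 under those same 4 sets. CR minus Ex had 4 calls, 13 with a filter of 50 RPM, 11 with size factors, 20 with no intensity trend, 0 to 37 with 1 library left out, and 0, 49, 17 and 15 under the same 4 sets. The labels do not say whether equal replicate numbers pair the samples. Correlations of deviations between libraries of equal replicate number ran from -0.42 to 0.61 over 18 pairs, 5 of them over 0.1. With 3 libraries per group they cannot decide it. With the replicate number as a block 22, 2 and 15 miRNAs were called, and 17 of those 22 were among the 23. Other alternatives stayed within 1.5 times each count. For single miRNAs and list medians 3309 values stayed on their side of any threshold and kept their direction or moved by less than their spread, 315 lost the threshold, 116 gained it, 27 uncalled values or list medians moved by more than their spread and no called value reversed. The planned count test on reads was not run, because the RPM worth of 1 read was assumed. A step was set so that the smallest listed value of each library is 2 steps, and 1 step was taken as 1 read. A voom fit on reads taken that way called 26, 3 and 3 miRNAs in the average, the difference between diets and CR minus Ex. Depth limits HF+Ex 1 most of the 18 libraries (0.406 RPM per read) and HF+CR 3 most of the 12 compared (0.334 RPM).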
